A study of Mus musculus with 4 samples.

Results

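Immediate early genes are genes that cells transcribe within minutes of a stimulus, without first making new protein. The 10 members described here, Fos, Fosb, Jun, Junb, Jund, Egr1, Nr4a1, Arc, Btg2 and Ier2, were taken by gene symbol from the 32285 genes in the count tables. No threshold on their measured levels was used, although earlier results of these data were known when they were listed. All 10 were found. The study measured RNA in single nuclei of the spinal dorsal horn, the part of the mouse cord that receives input from the skin and body, and asked how loss of the receptor gene Gpr37l1 bears on the cord before and after nerve injury. There were 4 libraries, 1 per group. A wild-type (Gpr37l1+/+) and a knockout (Gpr37l1-/-) library came from naive mice, and 1 of each genotype from mice 1 day after spared nerve injury (SNI). SNI cuts branches of the sciatic nerve outside the cord, so the injured cells themselves lie mostly outside the tissue sampled. Where 4 values are given in a row, naive comes before SNI and, within each, wild type before knockout. The labels name no Cre driver for the knockout, and no source used here gives strain, sex, age or the number of animals pooled in a library.

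The labels hold a contradiction that touches every comparison. The treatment field gives SNI for the library titled knockout naive and naive for the library titled wild-type SNI. Groups here follow the titles and library names. If the treatment field were right, every wild-type library would come from naive and every knockout library from injured mice, and genotype and injury could not be told apart. Gpr37l1 itself, which checks genotype only, had 141, 0, 129 and 1.55 CPM among astrocyte-like nuclei. CPM is the number of UMIs (counted RNA molecules) per 1000000 UMIs of that class and library, mitochondrial genes left out. Over all kept nuclei of the knockout naive library it had 18 UMIs, against 414 in wild-type naive.

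In the textbook account, a stimulus such as synaptic calcium entry or a growth factor activates kinases that phosphorylate factors already bound at these genes, among them CREB and serum response factor. FOS-family proteins pair with JUN-family proteins to form AP-1, which binds DNA and turns on later genes. FOS and JUN proteins are long used in the dorsal horn as markers of neurons activated by noxious input, while JUN is also part of the response of cells to axon damage and stress. Their messengers are short-lived, so a level is a snapshot of recent transcription.

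The promoters of 4 members are shown because Fos and Junb had a similar order of the libraries in glia, Jun had another order, and Btg2 lies on the same chromosome as the deleted gene. Each is the 250 bases before the RefSeq transcript start on mouse build GRCm38.p6, printed 5′ to 3′ on the gene's strand. They lie at chr12:85473640-85473889 (Fos, plus strand), chr8:84978749-84978998 (Junb, minus), chr4:95052223-95052472 (Jun, minus) and chr1:134079156-134079405 (Btg2, minus). Capitals mark TGACG, the core of the CREB site, and TGANNTCA, an 8-base form of the AP-1 and CREB site. TGANTCA, the 7-base AP-1 site, was searched too and has no match in these windows.
Fos: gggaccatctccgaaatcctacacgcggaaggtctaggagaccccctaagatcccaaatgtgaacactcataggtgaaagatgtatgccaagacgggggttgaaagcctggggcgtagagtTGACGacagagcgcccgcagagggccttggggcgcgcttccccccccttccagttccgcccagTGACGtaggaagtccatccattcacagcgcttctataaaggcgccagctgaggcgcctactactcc
Junb: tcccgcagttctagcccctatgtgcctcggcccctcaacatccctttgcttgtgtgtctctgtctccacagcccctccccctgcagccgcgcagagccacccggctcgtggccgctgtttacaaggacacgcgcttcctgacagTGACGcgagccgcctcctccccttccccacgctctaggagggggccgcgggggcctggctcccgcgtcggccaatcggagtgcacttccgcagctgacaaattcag
Jun: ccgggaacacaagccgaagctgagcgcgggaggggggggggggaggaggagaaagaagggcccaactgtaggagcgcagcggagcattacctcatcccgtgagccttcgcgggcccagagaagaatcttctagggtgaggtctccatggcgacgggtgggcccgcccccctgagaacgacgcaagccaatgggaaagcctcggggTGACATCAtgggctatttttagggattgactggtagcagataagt
Btg2: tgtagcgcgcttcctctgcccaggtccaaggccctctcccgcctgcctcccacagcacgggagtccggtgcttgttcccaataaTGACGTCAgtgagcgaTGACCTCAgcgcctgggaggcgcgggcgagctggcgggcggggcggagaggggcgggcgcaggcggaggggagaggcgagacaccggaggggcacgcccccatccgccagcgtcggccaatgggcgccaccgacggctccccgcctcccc
Both strands were searched, and positions count back from the transcript start at the first base of the match. Fos has TGACG at -129 and -66 and a TATAAA at -33. Junb has TGACG at -106. Jun has no TGACG and 1 match to TGANNTCA, TGACATCA at -45. Btg2 holds the full palindrome TGACGTCA at -166, which overlaps the TGACG and TGANNTCA matches there, and TGACCTCA at -150. Of 32841 mouse promoters of the same length, 17.8% hold TGACG, 11.9% TGANNTCA, 6.75% TGANTCA and 1.55% TGACGTCA. Promoters were found in the RefSeq table for 7 of the 10 members. A match describes these letters only and was not tied to binding.

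Between 17807 and 33769 nuclei per library were kept, 101226 in all, from libraries of 35197290 to 69572640 UMIs. Clusters were named from marker genes, and 55159 nuclei (54.5%) fell in 6 named classes: excitatory neuron-, inhibitory neuron-, astrocyte-, oligodendrocyte-, oligodendrocyte precursor- and microglia-like. Neurons below means the first 2 classes summed, 6151 to 10239 nuclei per library, and glia the other 4, 4653 to 7980 nuclei. Pairs of libraries shared between 0.731% and 1.05% of the barcodes of the smaller one. The knockout naive library stood apart: its oligodendrocyte-like nuclei lay mostly in another cluster (235 nuclei in cluster 2 and 4997 in cluster 5, against 2813 and 37 in wild-type naive, 2481 and 119 in wild-type SNI, and 2615 and 211 in knockout SNI). An unnamed cluster led by Actb, Aldoc and Romo1 was filled mostly by 2 libraries, with 87, 4749, 4579 and 238 nuclei. It enters no named class. As no group had a second library, no test was possible. The 95% intervals are exact Poisson or binomial intervals, except that those of differences between log2 ratios are a normal approximation. All of them cover counting error only and not the spread between animals.

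Jund and Fosb stood at the ends of the range of expression. Jund, a JUN family member made steadily in many cells, had 33.3, 39.9, 45.5 and 41.0 CPM in neurons and 54.5, 71.8, 76.2 and 62.6 CPM in glia. Per kilobase of annotated exon, the mean level of Jund over the 4 libraries was 23.9 CPM in neurons and 39.7 CPM in glia, the highest of the 10 in both. Fosb, a FOS family member, was the lowest on the same per-kilobase scale, at 0.133 and 0.163 CPM. Its counts in neurons were 6, 21, 10 and 11 UMIs and in glia 4, 11, 5 and 4 UMIs, too few for any comparison between libraries. Arc, which encodes a protein of the synapse that can carry RNA between cells, had 17, 29, 12 and 11 UMIs in neurons. The other 7 members ranged from 1.01 (Ier2) to 4.37 (Btg2) CPM per kilobase in neurons. These are 3′ counts, which need not scale with transcript length.

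**Figure D1:**
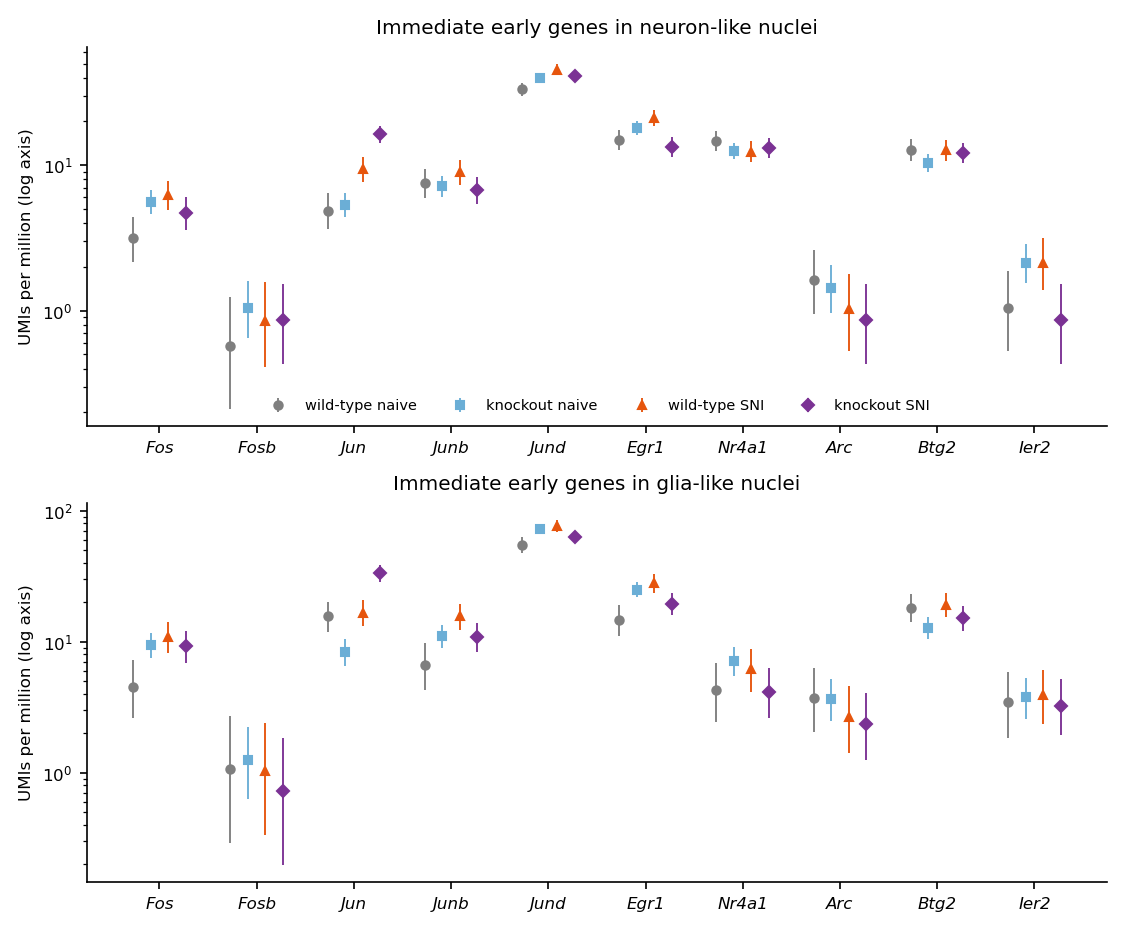
Levels of the 10 members in neuron-like (top) and glia-like (bottom) nuclei, in CPM on a log axis, 1 point per library with its exact 95% Poisson interval. Jund lies above the other members in both panels, and Jun is highest in the knockout SNI library.

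Fos, the best known activity marker, had its lowest level in naive wild type, in neurons and in glia. In neurons it stood at 3.15 CPM (33 UMIs; 95% interval 2.17 to 4.42), 5.60 (113; 4.61 to 6.73), 6.24 (73; 4.89 to 7.84) and 4.68 (60; 3.57 to 6.02). The wild-type naive interval does not meet those of the wild-type SNI and knockout naive libraries, but overlaps that of the knockout SNI library. In glia Fos stood at 4.52, 9.47, 10.9 and 9.23 CPM, from 17, 83, 53 and 51 UMIs. In neurons thinned to 1000 UMIs each, a Fos UMI was found in 0.216%, 0.682%, 0.678% and 0.447% of nuclei, and in all neurons, unthinned, in 0.502%, 1.05%, 1.15% and 0.680%. Thinning left out 621, 568, 395 and 1734 shallower neurons. No class was taken to lack these genes, so the share that free RNA alone would give was not measured.

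Egr1, a zinc finger factor that follows synaptic activity, had the highest levels in the same pair of libraries, knockout naive and wild-type SNI. In neurons it stood at 14.98 CPM (12.7 to 17.5), 18.1 (16.3 to 20.0), 21.1 (18.6 to 23.9) and 13.4 (11.5 to 15.6). In glia it stood at 14.6, 25.0, 27.9 and 19.4 CPM. Both libraries were above the other 2 in each of the 6 classes, an order found in 0.309% of the 6803 genes with at least 50 UMIs in every class. In oligodendrocyte-like nuclei, however, the knockout naive and knockout SNI levels were close, at 25.4 and 25.2 CPM. The order was lost in that class with predicted doublets kept and with at least 1000 UMIs and 500 genes per nucleus, where the injury ratio in wild type was -0.02 on the log2 scale, and in 2 classes with nuclei thinned to 1000 UMIs. In thinned neurons an Egr1 UMI was found in 1.40%, 1.91%, 2.10% and 1.23% of nuclei.

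Junb, an AP-1 member that often counters Jun, differed between libraries in glia more than in neurons. Its levels were 7.54, 7.18, 8.97 and 6.78 CPM in neurons, with all 4 intervals overlapping. In glia they were 6.65 CPM (4.302 to 9.81), 11.0 (8.87 to 13.4), 15.6 (12.3 to 19.5) and 10.9 (8.29 to 14.0). The wild-type naive library was the lowest in glia and its interval does not reach that of the wild-type SNI library.

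Ier2, a small nuclear regulator with a single exon on chromosome 8, 0.312 megabases from Junb, was low everywhere. Its neuronal levels were 1.05, 2.13, 2.14 and 0.857 CPM, from 11, 43, 25 and 11 UMIs. The wild-type SNI and knockout naive libraries were again the upper pair. In glia Ier2 stood at 3.46, 3.76, 3.90 and 3.26 CPM, with overlapping intervals.

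Counted over members, the wild-type SNI and knockout naive libraries were both above the other 2 for 3 of the 9 members with at least 50 UMIs in neurons (Fos, Egr1 and Ier2). Of all genes at that minimum, 12.2% had this order in neurons. In glia it held for 6 of 9 members (Fos, Junb, Jund, Egr1, Nr4a1 and Ier2), beside 12.6% of all genes. Over all kept nuclei it held for 6 of 10 (Fos, Fosb, Junb, Jund, Egr1 and Ier2), beside 12.2%. Both SNI libraries were above both naive ones for Jun and Jund in neurons (18.1% of all genes) and for Jun alone in glia (18.8%) and over all kept nuclei (19.4%). Both knockout libraries were above both wild-type ones for 0 of 9 members in neurons and 0 of 9 in glia, beside 20.2% and 20.4% of all genes, and for Nr4a1 over all kept nuclei, beside 16.4%. The pair knockout naive and wild-type SNI are also the 2 libraries whose treatment field contradicts their titles, and the 2 that hold the cluster led by Actb and Aldoc. Abundant cytoplasmic transcripts, 10 of 10 detected in each library, summed to 1830, 1704, 2704 and 2481 CPM in neurons and 3668, 2969, 5117 and 4251 CPM in glia. Neuronal markers in glia, 6 of 6 detected in each library, summed to 1909, 4594, 2510 and 3137 CPM, and the part of either list in the members' values was not tested.

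Jun, the partner of Fos in AP-1, followed another order and was highest in the knockout SNI library. In neurons it stood at 4.87 CPM (51 UMIs; 3.62 to 6.40), 5.35 (108; 4.39 to 6.46), 9.40 (110; 7.73 to 11.3) and 16.4 (210; 14.2 to 18.7). The naive libraries overlap, the wild-type SNI library lies above both, and the knockout SNI library lies above all 3. In glia Jun stood at 15.7 CPM (11.9 to 20.2), 8.33 (6.53 to 10.5), 16.6 (13.2 to 20.7) and 33.1 (28.5 to 38.3). Here the 2 wild-type libraries overlap and the knockout naive library is the lowest. In thinned neurons a Jun UMI was found in 0.486%, 0.538%, 0.921% and 1.86% of nuclei, and unthinned in 0.825%, 1.03%, 1.72% and 2.36%.

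The knockout SNI library was the highest for Jun in 5 of the 6 classes, oligodendrocyte precursor-like nuclei being the exception. Astrocyte-like nuclei had 11.3, 3.15, 12.6 and 33.7 CPM (11, 7, 22 and 65 UMIs). Oligodendrocyte-like nuclei had 17.8, 10.3, 21.3 and 43.8 CPM, excitatory neurons 3.18, 4.66, 7.91 and 14.8 CPM, and inhibitory neurons 7.10, 6.41, 11.4 and 18.7 CPM. Microglia-like nuclei had 5, 2, 9 and 23 UMIs, or 10.3, 2.74, 17.3 and 20.8 CPM. Oligodendrocyte precursor-like nuclei had 8, 13, 5 and 8 UMIs, with intervals that all overlap.

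Jun was mostly seen as 1 UMI per nucleus. In knockout SNI neurons its 210 UMIs lay in 205 nuclei, with at most 2 in a nucleus, and 5 nuclei had 2. In glia of that library 183 UMIs lay in 175 nuclei, 7 of them with 2 or more. Over all its kept nuclei, 32 of 671 nuclei with Jun had 2 or more. At means of 1480 (neurons) and 878 (glia) UMIs per nucleus, such levels mostly give single UMIs. How evenly Jun was spread was not tested. Atf3, a factor that injured neurons make and that pairs with Jun, was also highest in that library: 0.382, 0.0495, 0.940 and 9.51 CPM in neurons and 0, 0.342, 3.08 and 18.1 CPM in glia. In knockout SNI neurons the 121 nuclei with an Atf3 UMI held 2 of the 210 Jun UMIs. In glia of that library 99 such nuclei held 5 of 183. Whether Jun and Atf3 rose in the same nuclei was not tested. Sprr1a, a gene of injured sensory and motor neurons, stood at 0, 0, 1.62 and 15.3 CPM in neurons. In glia it stood at 0, 0, 1.23 and 28.8 CPM. The wild-type SNI values rest on 19 UMIs in neurons and 6 in glia, and both naive libraries had 0 UMIs in either. The 5 markers of cholinergic neurons summed to 5.53, 6.34, 11.8 and 42.2 CPM in neurons and 11.97, 11.0, 22.6 and 79.1 CPM in glia. The 10 markers of microglia summed to 219, 174, 284 and 514 CPM in neurons and 1092, 511, 957 and 1633 CPM in glia. These levels move with Jun in the knockout SNI library and their part in its level was not tested.

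**Figure D2:**
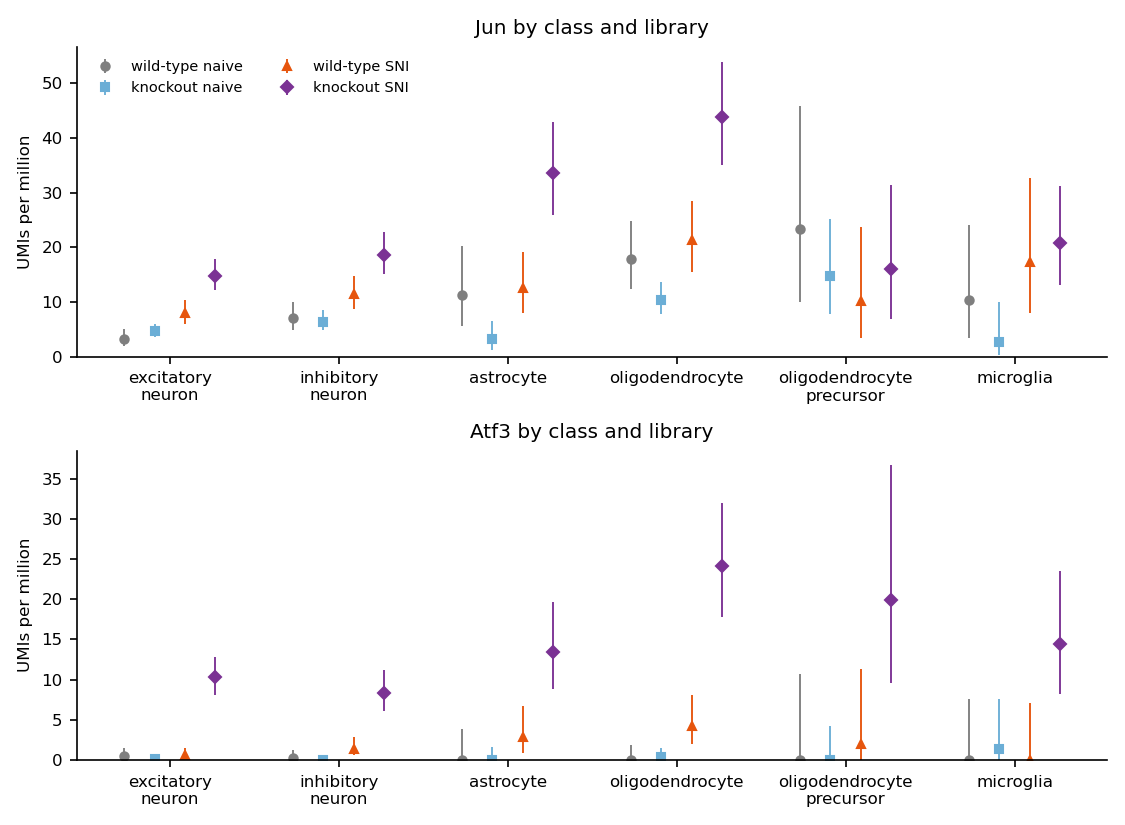
Jun (top) and Atf3 (bottom) in each of the 6 classes, in CPM on a linear axis, 1 point per library with its exact 95% Poisson interval. The knockout SNI points lie at 14.8 to 43.8 for Jun outside oligodendrocyte precursor-like nuclei, and Atf3 is above its other libraries in every class.

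Nr4a1, an orphan nuclear receptor induced by activity, was the 1 member higher in neurons than in glia in 4 of 4 libraries. It stood at 14.7, 12.5, 12.4 and 13.2 CPM in neurons and 4.25, 7.07, 6.16 and 4.16 CPM in glia. The ratio of neurons to glia was 3.45, 1.76, 2.01 and 3.16, or 1.32 ± 0.48 on the log2 scale (mean ± SD, n = 4 libraries). Of all genes with at least 50 UMIs in neurons and glia together, 28.1% were higher in neurons in 4 of 4. The ratio was smallest in the knockout naive library, where neuronal markers in glia were highest, and largest in wild-type naive, where they were lowest. Knockout SNI, however, had more of these markers than wild-type SNI and also a larger ratio, 3.16 against 2.01. A link was not tested. Inhibitory neurons had 15.7 ± 1.31 CPM and excitatory neurons 11.4 ± 1.34 CPM, ranges of 14.0 to 17.0 and 10.5 to 13.4 that do not overlap. Oligodendrocyte precursor-like nuclei had 14.7 ± 7.06 CPM from 33 UMIs in all, not separable from either. Astrocyte-, oligodendrocyte- and microglia-like nuclei lay lower, at 3.74, 4.53 and 5.95 CPM.

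Most other members were higher in glia, an order that is common among all genes and not particular to them. Fos, Jun, Jund, Arc, Btg2 and Ier2 were higher in glia in 4 of 4 libraries, beside 44.3% of all genes, and Fosb, Junb and Egr1 in 3 of 4. The interval includes 0 for Fos in wild-type naive, Btg2 in both knockout libraries and Ier2 in wild-type SNI. For Fosb it includes 0 in all 4. On the log2 scale, neurons over glia, Jund was at -0.73 ± 0.10, Fos at -0.77 ± 0.19, Jun at -1.04 ± 0.46, Btg2 at -0.43 ± 0.14, Ier2 at -1.33 ± 0.57 and Arc at -1.35 ± 0.11 (mean ± SD, n = 4 libraries). Arc, known from neurons, stood at 3.72, 3.65, 2.67 and 2.35 CPM in glia and was highest in oligodendrocyte-like nuclei, at 4.17 ± 1.72 CPM from 50 UMIs. CPM here is a share of each class's RNA, and glia had fewer UMIs per nucleus, with means of 808 to 1099 against 1480 to 1972 in neurons.

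Btg2, an antiproliferative gene that slows the cell cycle and destabilises messengers, was highest in microglia-like nuclei. They had 47.6, 34.2, 36.4 and 27.1 CPM (23, 25, 19 and 30 UMIs), against means of 10.1 to 14.6 CPM in the other 5 classes. The lowest microglial library lay above the highest value of any other class, 20.9 CPM in oligodendrocyte-like nuclei. In neurons Btg2 was level across libraries, at 12.8, 10.4, 12.6 and 12.2 CPM. Btg2 lies at chr1:134075170-134079120, 1.08 megabases from Gpr37l1, where loss of Gpr37l1 and the DNA linked to it cannot be told apart. The genotype log2 ratio of Btg2 in naive cord was -0.30 (-0.62 to 0.03) in neurons, -0.50 (-0.95 to -0.04) in glia and -0.19 (-0.37 to -0.01) over all kept nuclei. In injured cord it was -0.06 (-0.39 to 0.28), -0.33 (-0.77 to 0.11) and -0.38 (-0.55 to -0.21). All 6 values were below 0, and 3 of the intervals lie below it. They are not separate observations, as all kept nuclei include the neurons and glia and each group has 1 library. The share of all genes with such a pattern is not given here.

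Jund was highest in oligodendrocyte-like nuclei, at 82.1 ± 12.7 CPM, with microglia-like nuclei next at 58.5 ± 16.3. These neighbours overlap, as the lowest oligodendrocyte library had 63.1 CPM and the highest microglial one 76.7. Oligodendrocyte precursor- and astrocyte-like nuclei followed at 54.3 ± 5.995 and 50.7 ± 9.71 CPM, and neurons were lowest at 40.7 ± 3.58 (excitatory) and 38.8 ± 6.97 (inhibitory). Egr1 had no such order: the class means ran from 15.1 to 24.2 CPM with ranges that overlap. A cluster left unnamed, led by Dipk2b, Zfp366 and Lef1, with Flt1, Slco1a4 and Tie1 among its first 10 genes, had 92.3, 176, 139 and 91.5 CPM of Btg2 and 123, 162, 56.5 and 136 CPM of Jun, from 42, 67, 213 and 159 nuclei. Both were above the level in each of the 6 named classes in every library.

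**Figure D3:**
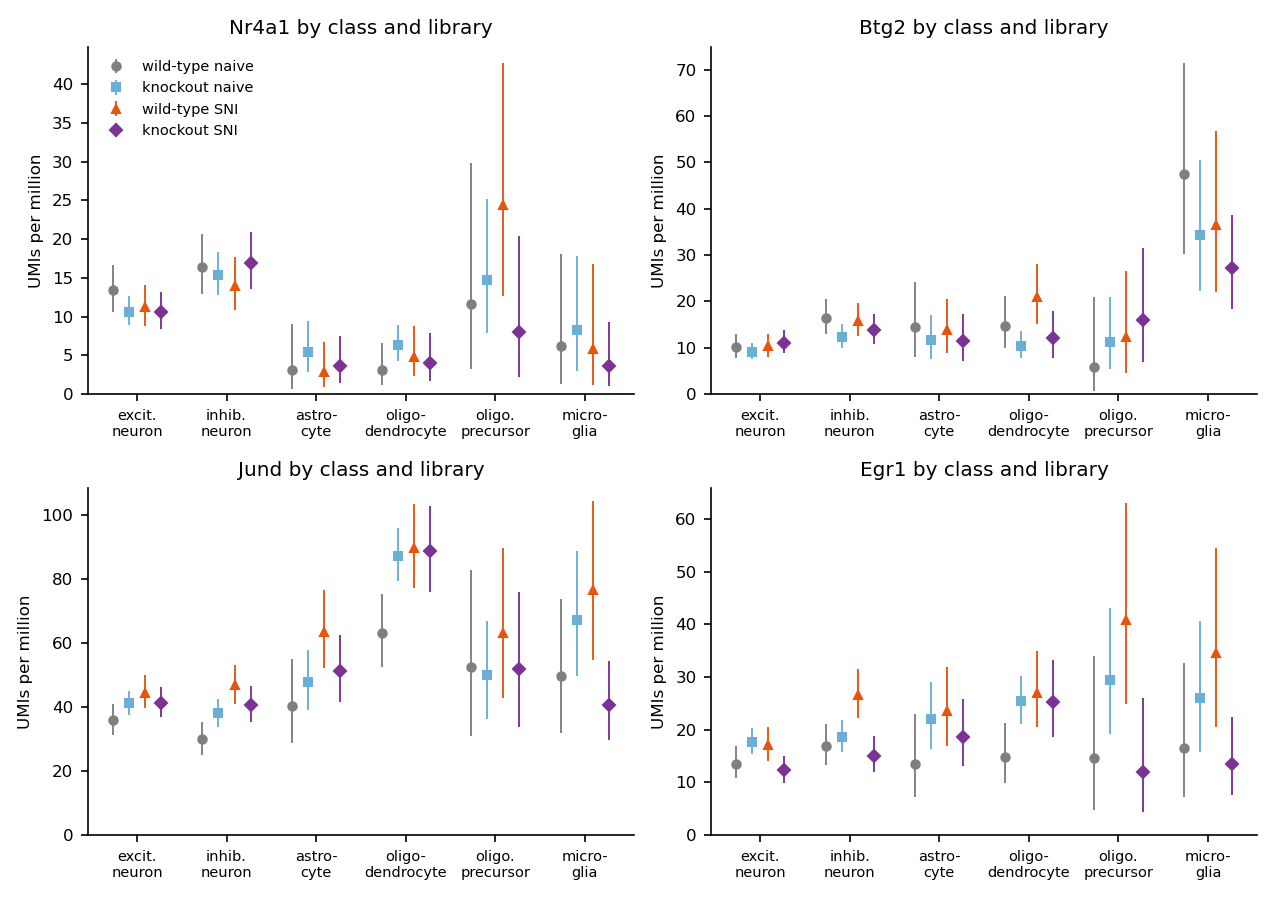
Nr4a1, Btg2, Jund and Egr1 in each of the 6 classes, in CPM on linear axes, 1 point per library with its exact 95% Poisson interval. Btg2 points of microglia lie at 27.1 to 47.6, above those of the other classes, and Nr4a1 is higher in both neuron classes than in astrocytes.

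The first comparison asked what differed 1 day after injury in wild-type cord. In neurons Fos and Jun were each nearly 2-fold higher in the SNI library: the log2 ratio was 0.99 (0.37 to 1.63) for Fos and 0.95 (0.46 to 1.46) for Jun. Egr1 (0.49, 0.20 to 0.79) and Jund (0.45, 0.25 to 0.65) were higher by less. Junb (0.25), Btg2 (-0.02) and Nr4a1 (-0.25) had intervals that include 0. A ratio is called higher or lower here where it is at least 2-fold and its interval excludes no difference, given at least 50 UMIs over the 2 libraries. Of the 7 members at that minimum in neurons, 0 were called higher, beside 0.585% of 14180 genes, and 0 lower, beside 0.254%. Their median log2 ratio was 0.45, and that of all genes 0.02. In excitatory neurons alone, Fos (1.24, 0.41 to 2.14) and Jun (1.31, 0.53 to 2.15) were called higher, beside 0.559% of genes. In inhibitory neurons Jun was at 0.68 (0.03 to 1.35) and was not called. In the 6 of 16 neuron clusters with 3 or more raised markers of their type, Jun was at 1.46 (0.71 to 2.27), past 2-fold, and Egr1 at 0.76 (0.27 to 1.27). Of the 16834 nuclei in those clusters, 2738 lay in an inhibitory cluster and the rest in excitatory ones, so these values are mostly excitatory.

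In wild-type glia 2 of 6 members were called higher after injury, Fos (1.27, 0.46 to 2.15) and Junb (1.23, 0.56 to 1.95), beside 0.89% of 12248 genes. None was called lower, where the share of genes was 0.563%. Egr1 (0.93, 0.47 to 1.41) and Jund (0.48, 0.23 to 0.74) were higher with intervals above 0, and Jun (0.08) and Btg2 (0.08) were not. The median was 0.71 and that of all genes 0.04. The calls of Fos and Junb depend on processing: they held in 4 and 3 of 7 alternatives, at the same sign in all 7. Over all kept nuclei Fos (1.06), Fosb (1.04) and Ier2 (1.07) were called higher, beside 1.0% of genes. That pool includes the cluster led by Actb, Aldoc and Romo1, with 87 wild-type naive and 4579 wild-type SNI nuclei. In these 2 libraries the cluster held 4 and 80 UMIs of Fos, 0 and 17 of Fosb, and 1 and 29 of Ier2. Its part in the 3 calls was not tested.

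In the knockout, Jun was the 1 member called higher after injury. The ratio in neurons was 1.61 (1.27 to 1.96), a 3.06-fold difference, and in glia 1.99 (1.59 to 2.40), 3.98-fold. By class it was 3.42 (2.29 to 4.79) in astrocyte-, 2.08 (1.57 to 2.61) in oligodendrocyte-, 1.66 (1.19 to 2.15) in excitatory and 1.54 (1.04 to 2.06) in inhibitory neuron-like nuclei. All 4 were called higher, where the share of genes was 3.04%, 2.72%, 3.6% and 3.28%. The astrocyte-like ratio rests on 7 UMIs in the knockout naive library. In neurons 4.36% of 14850 genes were called higher and in glia 5.57% of 13356, far more than in wild type, so 1 of 8 members called in each is read against a wide background. Jun was called in 7 of 7 alternatives, with ratios of 1.42 to 1.80 in neurons and 1.59 to 2.24 in glia, the highest in glia without oligodendrocyte-like nuclei. In the 6 neuron clusters with 3 or more raised markers it was 1.82 (1.29 to 2.36). Over all kept nuclei it was 1.61, where 7.89% of genes were called higher.

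Egr1 was lower in the knockout SNI library than in the knockout naive one, by -0.43 (-0.70 to -0.17) in neurons and -0.37 (-0.71 to -0.03) in glia. Ier2 was called lower in neurons (-1.31, -2.42 to -0.33), the 1 of 8 members so called beside 0.364% of genes, and the call held in 2 of 7 alternatives. Fos (-0.26 and -0.04) and Junb (-0.08 and -0.01) had intervals that include 0 in both. In glia 0 of 8 were called lower, beside 0.487% of genes, and Nr4a1 (-0.76, -1.52 to -0.05) was lower without reaching 2-fold. The medians were -0.02 in neurons and -0.12 in glia, and those of all genes 0.05 and 0.03.

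Both injury comparisons can be set against each other as the difference of their log2 ratios, knockout minus wild type. Its interval is a normal approximation, not an exact one, and covers counting error. With 1 library per group the difference was not tested. It was 1.91 (1.28 to 2.53) for Jun in glia and 0.66 (0.08 to 1.25) in neurons. It was negative for Egr1, at -0.93 (-1.32 to -0.54) in neurons and -1.30 (-1.86 to -0.74) in glia, and for Fos, at -1.25 (-1.99 to -0.50) and -1.30 (-2.24 to -0.37). Nr4a1 and Btg2 in neurons stood at 0.32 (-0.11 to 0.75) and 0.24 (-0.21 to 0.69). Not all members are listed here. Junb in glia and Ier2 in neurons also had lower injury ratios in the knockout than in wild type. For Ier2 the wild-type ratio rests on 25 and 11 UMIs, under the minimum.

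**Figure D4:**
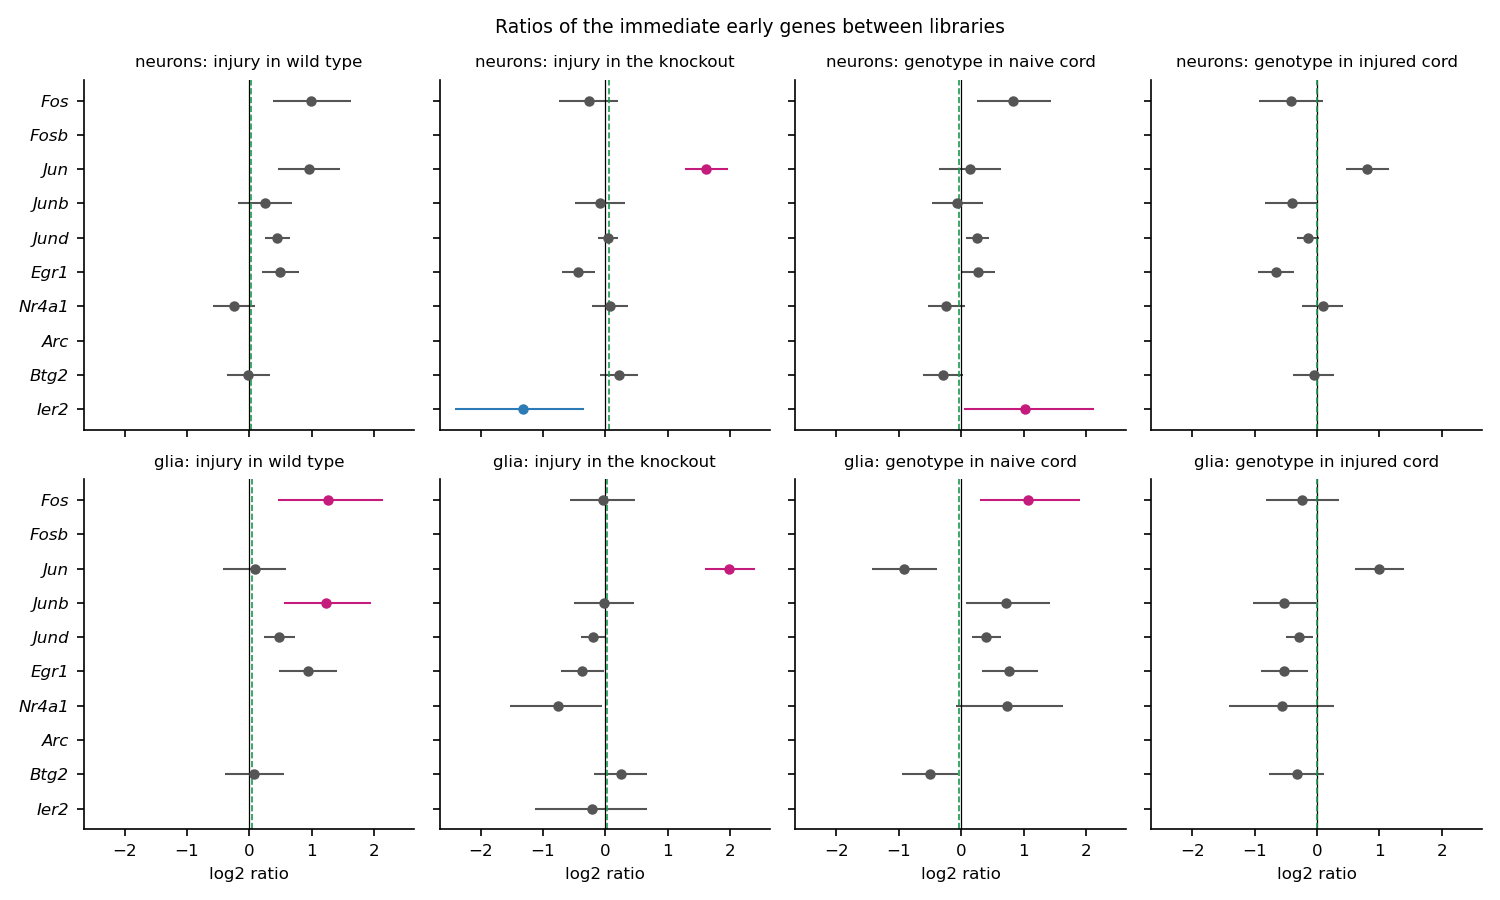
Log2 ratios of the members between pairs of libraries, with exact conditional 95% intervals, in neurons (top) and glia (bottom), 1 panel per comparison. Points appear for members that reach 50 UMIs in the compared pair, in magenta or blue where called higher or lower, and the dashed line is the median of all genes. Jun is the member farthest to the right after injury in the knockout, at 1.61 and 1.99.

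Genotype was compared within naive cord, knockout over wild type. In neurons Fos had a log2 ratio of 0.83 (0.26 to 1.44) and Ier2 1.02 (0.04 to 2.12). Ier2 was the 1 of 8 members called higher, beside 0.989% of 14655 genes, in 4 of 7 alternatives. None was called lower, where the share of genes was 5.93%. Jun stood at 0.14 (-0.36 to 0.65) in neurons. In glia Fos was called higher (1.07, 0.30 to 1.91), the 1 of 7 members, beside 4.15% of 12925 genes and in 4 of 7 alternatives. Egr1 (0.77), Junb (0.72) and Jund (0.40) in glia were also higher with intervals above 0. Jun (-0.91, -1.43 to -0.39) and Btg2 were lower in glia without reaching 2-fold, and 0 of 7 were called lower, beside 5.44%. In inhibitory neurons Fos was called higher (1.09, 0.27 to 1.98), the 1 of 7 members there, beside 1.05% of genes. Over all kept nuclei, which include the cluster led by Actb, Aldoc and Romo1, Fosb (1.23, 0.46 to 2.08) was the 1 of 10 called higher, beside 0.47%.

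In injured cord the knockout library had more Jun and less Egr1 than the wild-type one. This comparison does not use the knockout naive library. Jun had a log2 ratio of 0.80 (0.46 to 1.15) in neurons and 0.99 (0.61 to 1.39) in glia. It was called higher in astrocyte-like (1.42, 0.70 to 2.19) and oligodendrocyte-like nuclei (1.04, 0.50 to 1.59), where the share of genes was 0.917% and 0.873%. Egr1 stood at -0.66 (-0.94 to -0.37) in neurons and -0.53 (-0.91 to -0.15) in glia. Of 7 members in neurons, 0 were called higher and 0 lower, beside 0.914% and 0.242% of genes, and in glia 0 and 0 of 7, beside 1.05% and 0.485%. The medians were -0.15 and -0.33. The 4 comparisons share libraries, each library entering 2 of them, so their ratios are not independent.

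Other rapid-response genes are given by lists, as counts beside the shares above. Of 20 further rapid-response transcription factors, 8 to 13 reached the minimum in neurons. After injury in wild type 0 of the 8 at the minimum were called in neurons, and 0 of 3 in glia. The others had too few UMIs to be called. In the knockout Atf3 was called higher after injury in neurons (7.58, 5.08 to 12.9, from 1 UMI in the naive library) and Nr4a3, a relative of Nr4a1, lower (-1.28, -2.03 to -0.59). Atf3 was also called higher in the knockout in injured neurons (3.34) and, after injury and in injured cord, in glia (5.72 and 2.55). In naive neurons Egr3 (1.98, 0.92 to 3.26) and Nr4a3 (1.05, 0.35 to 1.82), both activity-induced, were called higher in the knockout. Npas4, a factor of neurons induced by calcium entry, stood at 6.58 and 4.70 CPM in wild-type naive and SNI neurons, and was not called.

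Of 26 feedback and signalling genes, 18 or 19 reached the minimum in neurons. In the 4 comparisons 0, 0, 1 and 0 were called higher, and none lower; the 1 was Zfp36l1 in naive cord (1.13), whose product degrades short-lived messengers. In glia 1 of 17 was called higher after injury in wild type, Gadd45g (1.02), and 3 of 19 in the knockout, Dusp6 (1.39), Zfp36l1 (1.27) and Gadd45g (1.06). Dusp6 encodes a phosphatase that switches off ERK. In naive glia Sik1 (1.72) and Dusp1 (1.19) were called higher in the knockout, 2 of 16. Of 12 delayed activity genes such as Bdnf, Homer1 and Nptx2, 0 were called in neurons in any of the 4 comparisons. In glia Vgf (1.34), a neuropeptide precursor, was called higher after injury in wild type. Of 21 upstream factors and kinases, among them Creb1 and Srf, 0 were called in neurons. In glia Elk3 (1.64) and Mef2c (1.06) were called higher after injury in the knockout, and in naive cord Camk4 (1.33) was called higher and Elk3 lower (-1.37) in the knockout.

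Heat shock genes, which handling of tissue can induce as it can immediate early genes, were listed too, and their part in the members' levels was not tested. Of 10 heat shock genes 8 reached the minimum in neurons, and Hspb1, a small heat shock protein of injured neurons, was the 1 called: higher after injury in wild type (1.31) and in the knockout (3.42), and higher in the knockout in injured cord (1.99). In glia Hspb1 (1.57) and Dnajb1 (1.21) were called higher after injury in wild type, 2 of 8. Calls in glia were not confined to that comparison. After injury in the knockout 1 of 8 was called higher, and in the knockout 1 of 7 in naive and 1 of 8 in injured cord, with 0 called lower. The list summed to 662, 681, 848 and 851 CPM in neurons and 1258, 1126, 1541 and 1401 CPM in glia. Abundant cytoplasmic transcripts had median log2 ratios of 0.54 and 0.57 after injury in neurons of wild type and knockout, with 1 and 2 of 10 called higher.

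The level of the members over neuron clusters was ranked by the summed CPM of Fos, Fosb, Egr1, Nr4a1 and Arc, in the 15 clusters with 50 or more nuclei per library. The members and lists were left out of the clustering. These type names rest on which type's markers had the higher mean: the clusters led by Hpse2 and Bmp6 had 1 and 0 of 5 markers of their type raised at least 2-fold. Highest was an inhibitory cluster with Hpse2 first and Rorb among its leading genes, at 81.9, 51.5, 73.6 and 50.6 CPM. Next were an inhibitory cluster led by Adamts5 (54.1, 52.2, 53.0 and 64.9 CPM) and an excitatory cluster led by Bmp6 and Maf (57.6, 46.2, 59.0 and 35.7 CPM). The lowest 3 were an inhibitory cluster led by Rxfp2 (mean 26.8 CPM), an excitatory one led by Bnc2 (26.5) and an excitatory one led by Unc5cl, with Lmo3 and Ptger3 (25.5). The clusters led by Hpse2 and by Unc5cl do not overlap, as the latter ran from 20.5 to 33.5 CPM over the libraries. They are the ends of a ranking by these same values, so their separation is not separate support for a difference.

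Members were rarely seen in the same nucleus. Of 148 thinned neurons with a Fos UMI, 2.03% (0.420 to 5.81) also had an Egr1 UMI, against 1.68% of neurons without Fos. Of 352 with an Nr4a1 UMI, 2.84% (1.37 to 5.16) had one of Egr1, against 1.66% without. In both pairs the share without the first gene lies inside the interval, so a difference was not detectable at 1000 UMIs per nucleus.

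Over the 24 combinations of 6 classes and 4 libraries, with each class's mean taken off, the genes whose log2 levels were most like the mean of the members at 200 UMIs or more were Dnajc30 (Pearson r 0.82), Pcbp1 (0.81), Eef2 (0.81), Psma1, Ywhaz, Ube2v1, Ptges3, Cplx1, Camk2n1 and Maged1 (0.75), of 14056 genes ranked. Against the mean of the other members, Jund had r 0.69, Junb 0.65, Egr1 0.48, Fos 0.40, Nr4a1 and Btg2 0.12 each, and Jun -0.30. These points share libraries and depth, so r is a description.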

How the data were processed

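The authors deposited unnormalized UMI counts for every gene in every nucleus of 4 libraries (10x 3′, 1 per group). Cell Ranger 7.0.0, Seurat 4.3.0, R 4.3.0 and build GRCm38 are named in the submitters' processing notes and file headers; whether intron reads were counted is not given in the sources used here. Nuclei with at least 300 genes and at most 5% mitochondrial UMIs were kept. The top 10% of doublet scores per library, a share set by hand, were removed. Nuclei were clustered together (scanpy 1.11.5, 3000 variable genes without the members and lists, 40 components, resolution 1), and a glial cluster was named where at least 66.7% of a class's markers, and 3 or more, were raised at least 2-fold. Neuron clusters were typed as excitatory or inhibitory by the higher mean log2 level of the type's 5 markers, with a gap of at least 0.8 and 3 or more of them seen in 2% of nuclei. Of 16 neuron clusters so typed, 6 also had 3 or more raised, and each had 4 or more detected. Counts were summed per class and library. Totals were 35197290 to 69572640 UMIs per library, and a median of 1206 to 1429 UMIs per kept nucleus.

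Log2 ratios of CPM have exact conditional binomial intervals. No test was run, as no group had a second library, and a count of 0 was set to 3. On simulated counts for the wild-type injury comparison in neurons (14170 genes), 95.4% of intervals held the true ratio. All 10 members are named whatever their value. Of each list, up to 4 genes per comparison with the largest ratio are named, and Sprr1a, cluster 32 (led by Dipk2b) and the cholinergic markers were added after values were seen. The members and lists were chosen with earlier results of these data known. Alternatives were the UMI minimum, doublets, nucleus filter, clustering, thinning, scaling and class weights.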

Additional observations from a re-analysis of the deposited data

Results flagged for a closer look

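Egr1 and Jund are listed because their injury ratios had opposite signs in the 2 genotypes, each with an interval that excludes 0. The difference between genotypes was not tested, as there is 1 library per group. In neurons the log2 ratio of Egr1 after injury was 0.49 (0.20 to 0.79) in wild type. In the knockout it was -0.43 (-0.70 to -0.17). In glia the values for Egr1 were 0.93 (0.47 to 1.41) and -0.37 (-0.71 to -0.03), and for Jund 0.48 (0.23 to 0.74) and -0.20, the latter with an interval that ends just below 0. The Egr1 signs held in 7 of 7 alternatives in both genotypes, in neurons and in glia. In the neuron clusters with 3 or more raised markers the knockout ratio of Egr1 was -0.37 (-0.76 to 0.01), an interval that includes 0. For Jund in the knockout the sign held in 6 of 7, and the ratio was 0.02 with predicted doublets kept.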

How the results depend on the processing

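No paired analysis was possible because each group has 1 library. The median log2 ratios of the members were recomputed under each alternative. They were set against the counting interval of the middle member, or the mean bounds of the 2 middle members, as no interval of the median itself was computed. Of 84 values, 76 lay within that interval and 8 outside. Within it, 2 medians for injury in the knockout changed sign: in glia from -0.12 to 0.15 with nuclei thinned to 1000 UMIs, and in neurons from -0.02 to 0.01 in clusters with 3 or more raised markers. In neurons, injury in the knockout moved from -0.02 to -0.39 with doublets kept, -0.35 at resolution 0.5 and -0.38 with the unnamed cluster 0 counted as neurons. In neurons, genotype in injured cord moved from -0.15 to -0.36 with doublets kept, -0.36 with each library clustered alone, -0.35 at resolution 0.5 and -0.35 with cluster 0 counted. In glia, injury in wild type moved from 0.71 to 0.33 with no UMI minimum, where more members of low count enter. The cause of the other shifts was not tested. Counting cluster 0 as neurons, keeping only neuron clusters with 3 or more raised markers, and leaving oligodendrocyte-like nuclei out of glia were chosen after seeing the data; the last gave 0.55, -0.14, 0.70 and -0.48 in glia. Of 570 member ratios by class, 538 stayed within their interval, 32 did not, and 0 called ones changed sign. Depth limits Fosb, Arc and Ier2, and most members in microglia- and precursor-like nuclei, where under 50 UMIs were found over a pair of libraries.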

Other observations

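Nuclei outside the 6 classes also carried the members. The cluster led by Actb, Aldoc and Romo1 had 29.6 CPM of Egr1 (25.3 to 34.4) in the wild-type SNI library and 51.3 CPM (44.0 to 59.5) in the knockout naive one, from 170 and 176 UMIs, with 79.7 and 120 CPM of Jund. The other 2 libraries had 87 and 238 nuclei in it, and 2 and 4 UMIs of Egr1. In cluster 4, with oligodendrocyte markers but leading genes of committed precursors, Jun stood at 5.91 CPM in the knockout naive and 30.8 CPM in the knockout SNI library, a log2 ratio of 2.38 (1.36 to 3.58).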
